A study of Mus musculus with 6 samples.

Results

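The machinery of synaptic vesicle release was followed as 38 mouse genes: 10 synaptotagmins, 7 SNAREs and SNARE regulators, 11 active zone genes, 8 genes of vesicle proteins and 2 further genes whose proteins carry tandem C2 domains. They were chosen by symbol, for what their proteins do, and found through their Ensembl identifiers. All 38 were among the 21553 genes with a value in the deposited tables. All 38 also passed the filter on low counts that left 15895 genes for testing, and the lowest count of any of them in any library was 80, for Syt2.

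RNA was sequenced from hippocampal neurons of C57bl/6 mouse embryos, taken at E16.5 and grown for 10 days in culture. The control neurons received no KCl, and the others were kept in 55 mM KCl for 0.5 h or for 3 h. High extracellular KCl depolarises neurons and is widely used to imitate a bout of electrical activity. Each of the 3 groups holds 2 libraries, which the labels call biological duplicates. They do not say whether animals or cultures were repeated, so the tests speak for the variation among these libraries alone.

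A synaptic vesicle fuses with the plasma membrane when the SNARE protein of the vesicle zips up with the SNAREs of the target membrane, while complexins hold the assembling complex ready and synaptotagmins sense the calcium that triggers fusion. The active zone is the protein scaffold that docks and primes vesicles opposite the receiving cell and gathers calcium channels there. Vesicle membranes carry further proteins, among them synaptophysin and the SV2 glycoproteins, and synapsins on the vesicle surface hold vesicles in clusters.

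The libraries held 98882007 to 141865913 counts, the lowest total belonging to replicate 2 at 3 h, and the 38 genes together took 0.841% to 1.208% of them. The labelled cell type was checked against marker genes. The 6 neuron markers summed to 908 to 1090 cRPKM in untreated libraries, where cRPKM is the authors' read count scaled to gene length and library total. The 7 astrocyte markers summed to 836 to 1250 cRPKM there, so RNA carrying the markers of both cell types was present. The 8 oligodendrocyte lineage markers summed to 206 to 295 cRPKM in untreated libraries. The 6 progenitor markers summed to 81.9 to 91.1 cRPKM and the 6 fibroblast markers to 32.2 to 43.5. All 8 microglia markers were under 1 cRPKM in every library, as were 5 of the 6 endothelial markers. Of 8 genes known to answer neuronal activity, 3 were called higher at 0.5 h and 7 at 3 h by edgeR.

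In untreated neurons the 38 genes spanned levels from 0.185 to 399 cRPKM (means of 2 libraries). Syp, which encodes the vesicle membrane protein synaptophysin, was highest at 399 ± 69 cRPKM (SD, n = 2), and Vamp2, the SNARE of synaptic vesicles, followed at 383 ± 55. Of the 37 neighbouring pairs in the order of untreated levels, 21 stood in the same order in both libraries, Syp and Vamp2 among them, and in 13 the ranges over the 2 libraries did not overlap. The target membrane SNARE Snap25 stood at 277 ± 23 cRPKM, with a range above that of the next gene. Next came Syt11, an atypical synaptotagmin, at 243 ± 13, Rab3a, the small GTPase of synaptic vesicles, at 222 ± 24, and Syt1, the fast calcium sensor of forebrain synapses, at 187 ± 46. Those 3 kept this order in both libraries, while the ranges of neighbours overlapped.

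The active zone genes lay between 7.91 ± 0.12 cRPKM for Rims2 and 51.9 ± 1.7 for Unc13a (SD, n = 2). Unc13a encodes Munc13-1, which primes vesicles for fusion. Lower means were found for Syt12 (3.59 cRPKM), Syt6 (1.92) and relatives that are better known from other neurons. Syt2, the fast calcium sensor of brainstem synapses, had 0.185 ± 0.035 cRPKM. Vamp1, a SNARE found mostly in brainstem and spinal cord, had 6.65 ± 3.1, and its range overlapped that of Rims2. Sv2c, the SV2 form typical of the basal ganglia, had 2.92 ± 2.0. The plot of levels in each library shows these spans by role.

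**Figure D1:**
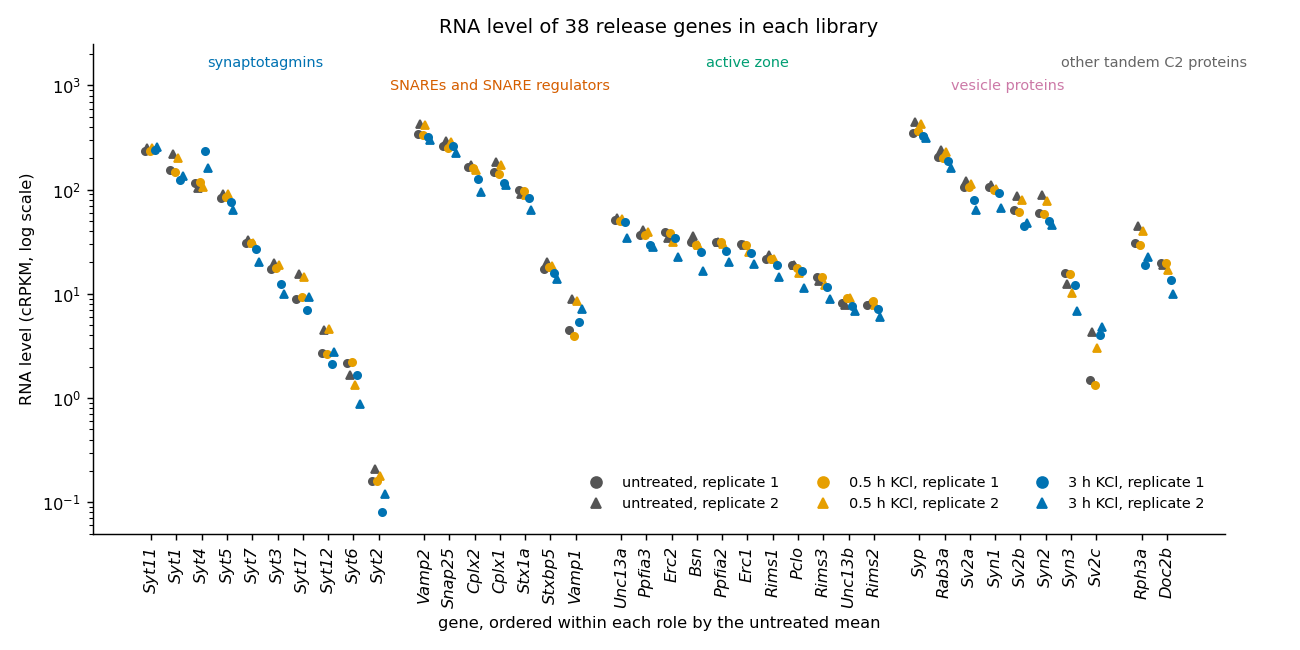
RNA level of the 38 release genes in each of the 6 libraries, as cRPKM on a log axis, with genes grouped by role and ordered by the untreated mean. Circles are replicate 1 and triangles replicate 2. Syp and Vamp2 lie at the top, Syt2 lies lowest near 0.185 cRPKM, and Syt4 at 3 h stands above its other libraries.

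After 0.5 h in KCl the release genes lay close to their untreated levels. No release gene was called in either direction, at an adjusted p under 0.05 in edgeR's quasi-likelihood test, in edgeR with replicate number as a block, in DESeq2 or in limma, and none had an unadjusted p under 0.05 in edgeR. The last rule took 0.629% of all tested genes higher and 0.176% lower. In DESeq2 these shares were 0.22% and 0.0126%, and in limma 0.0503% and 0.0%. Over all tested genes edgeR called 0.0377% higher and 0.0% lower at this time, so a count of 0 among 38 is near the background. With the block it called 0.0818% higher and 0.0% lower. The log2 fold changes ran from -0.44 for Sv2c to 0.16 for Unc13b, with a median of -0.08. They were below 0 for 35 of 38 genes, against 49.9% of all tested genes, and without untreated replicate 2 the median was 0.02.

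After 3 h Syt4 was higher and Syt3 was lower, and most of the other release genes lay below their untreated levels. How many of them were called depended on the test. edgeR called 1 of the 38 higher and 1 lower, against 8.71% higher and 6.84% lower of all tested genes, so both shares were under the background in that fit. With replicate number as a block, edgeR called 1 higher and 14 lower (36.8% of the 38), against 18.6% of all tested genes in each direction. The lower share was thus above the background there, and likewise in DESeq2, which called 9 lower (23.7%) against 11.7% of all and 1 higher against 14.3%. At an unadjusted p under 0.05 edgeR had 11 lower (28.9%) against 16.6% and 1 higher against 17.8%. limma called 1 lower and 0 higher, against 6.75% and 8.45%. The median log2 fold change of the 38 was -0.38 (range -0.82 to 0.91), where that of all tested genes was -0.02. A fold change below 0 was seen for 35 of the 38 and for 51.9% of all tested genes. The cRPKM values of the 3 h libraries lay below both untreated libraries for 30 release genes, above both for 1 and overlapped for 7, and the same separation was found in 35.9% of all tested genes downward and 24.1% upward. On the TMM scale of the test, 26 were separate downward and 2 upward, against 32.0% and 29.6% of all tested genes. Fewer cells of a type and less RNA per cell cannot be told apart in these bulk samples.

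**Figure D2:**
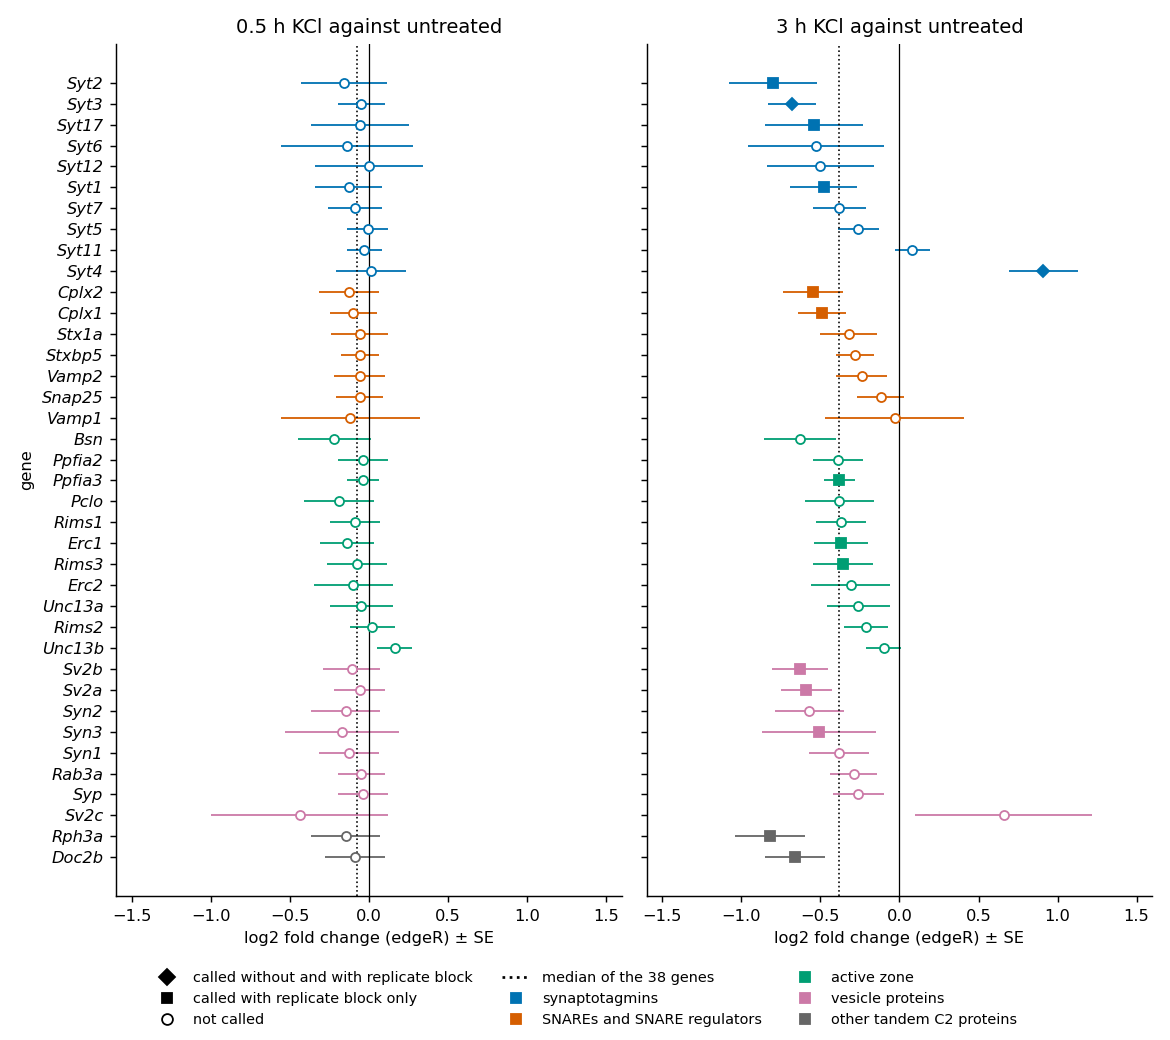
log2 fold change with its SE from edgeR for each of the 38 release genes, at 0.5 h (left) and 3 h (right) against untreated, coloured by role. Diamonds are genes called without and with the replicate block, squares genes called with the block only and open circles genes not called, and the dotted line is the median, -0.08 at 0.5 h and -0.38 at 3 h.

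Among the synaptotagmins, Syt4 and Syt11 differ from Syt1 in that their proteins are thought not to act as fast calcium sensors, and Syt4 is known as a gene induced by depolarisation. Syt4 (ENSMUSG00000024261) measured 116.97 and 104.25 cRPKM in the untreated libraries, 118.48 and 107.16 at 0.5 h, and 234.95 and 162.74 at 3 h. Both 3 h libraries were above all 4 others, and the 0.5 h libraries matched the untreated ones closely. Its log2 fold change at 3 h was 0.91 ± 0.22 (SE; edgeR adjusted p = 0.047, with the block 0.0097). The mean level at 3 h was 180% of the untreated mean. The call rests on single libraries: with 1 of the 6 libraries left out, edgeR gave adjusted p of 0.021 to 0.25, and only leaving out replicate 2 at 3 h kept the call. limma did not call it.

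Syt3 (ENSMUSG00000030731), a high-affinity calcium sensor that has also been placed on the receiving side of synapses, was the gene called lower. It measured 17.48 and 19.74 cRPKM in untreated neurons, 17.65 and 18.74 at 0.5 h, and 12.43 and 9.86 at 3 h. Both 3 h libraries were below all 4 others. Its log2 fold change at 3 h was -0.68 ± 0.15 (edgeR adjusted p = 0.039, with the block 0.024), and its mean level was 59.9% of untreated. With 1 library left out, edgeR gave adjusted p of 0.015 to 0.21, and only leaving out replicate 1 at 3 h kept the call.

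Syt11 (ENSMUSG00000068923) showed a flat course beside these 2 genes. It measured 233.79 and 252.33 cRPKM untreated, 234.06 and 249.13 at 0.5 h, and 239.44 and 254.77 at 3 h, and the groups overlapped in cRPKM. On the TMM scale both 3 h libraries lay above both untreated ones, as in 29.6% of all tested genes. The log2 differences were small, 0.12 within replicate 1 and 0.04 within replicate 2, and edgeR did not call Syt11. Syt1 (ENSMUSG00000035864) measured 154.94 and 219.63 cRPKM untreated, 148.64 and 200.01 at 0.5 h, and 122.72 and 135.58 at 3 h. The untreated libraries of Syt1 lay far apart, and both 3 h libraries lay below them. Syt1 was called lower in the blocked fit and not in edgeR without the block (log2 fold change -0.48 ± 0.21 without the block, edgeR adjusted p = 0.17, with the block 0.041).

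With the block, edgeR also called Syt2 and Syt17 lower at 3 h. Syt2 had -0.80 ± 0.28 on the log2 scale (edgeR adjusted p = 0.10, with the block 0.019), at levels of 0.16 and 0.21 cRPKM untreated and 0.08 and 0.12 at 3 h. Syt17, whose protein lacks a membrane-spanning segment, had -0.54 ± 0.31 (edgeR adjusted p = 0.28, with the block 0.030). The other 4 synaptotagmins were not called in either fit. Syt5 went from 87.0 ± 5.0 cRPKM untreated to 69.9 ± 7.8 at 3 h (SD, n = 2), and Syt7, the slow high-affinity sensor, from 32.0 ± 1.3 to 23.5 ± 4.7. Their 3 h libraries lay below both untreated ones. Syt6 and Syt12 stayed under 5 cRPKM and overlapped between the groups. Over the 10 synaptotagmins the median log2 fold change was -0.49.

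In the synaptotagmin RNA the share of Syt4 was higher at 3 h in both libraries, while the sums of the groups overlapped. The 10 genes summed to 696.5 ± 63 cRPKM untreated, 682.8 ± 48 at 0.5 h and 691.6 ± 44 at 3 h (SD, n = 2). Syt4 supplied 16.0 ± 2.7% of that sum untreated, 16.6 ± 2.3% at 0.5 h and 28.6 ± 5.6% at 3 h. Its share in each library was 17.9% and 14.1% untreated against 32.5% and 24.6% at 3 h, with no overlap. Syt1 supplied 26.7 ± 4.1% untreated and 18.8 ± 2.5% at 3 h, also without overlap between libraries. Syt11 supplied 35.0 ± 1.3% and 35.8 ± 3.8%. The other 9 genes without Syt4 summed to 585.9 ± 72 cRPKM untreated and 492.8 ± 7.2 at 3 h. No test was run on these shares.

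**Figure D3:**
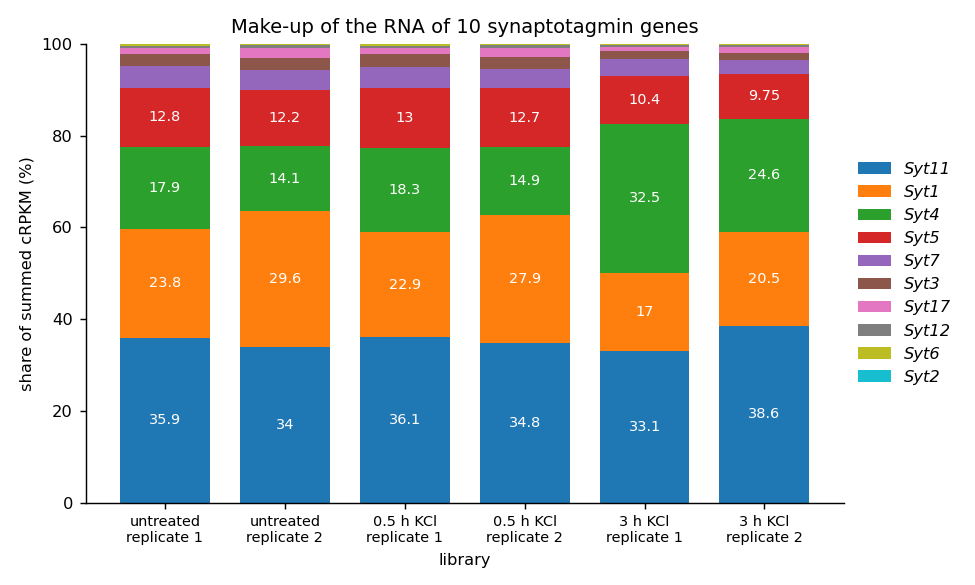
Share of each of 10 synaptotagmin genes in their summed cRPKM, in percent, for each of the 6 libraries. The Syt4 band is 32.5% and 24.6% at 3 h against 17.9% and 14.1% untreated, the Syt1 band is narrower at 3 h, and the Syt11 band lies between 33.1% and 38.6% throughout.

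Shares of all tested genes called lower at 3 h, for reading the counts of each role, were 6.84% in edgeR without the block, 18.6% with it, 16.6% at an unadjusted p under 0.05, 11.7% in DESeq2 and 6.75% in limma. No SNARE or SNARE regulator was called at 3 h by edgeR without the block, 2 of 7 had an unadjusted p under 0.05, and with the block 2 of 7 were called lower; DESeq2 called 2 lower and limma 0. The blocked calls were both complexins, which clamp and then assist the SNARE complex. Cplx1 measured 147.47 and 184.34 cRPKM untreated, 142.58 and 171.95 at 0.5 h, and 116.14 and 111.29 at 3 h. Cplx2 measured 165.41 and 174.31 untreated, 162.00 and 153.92 at 0.5 h, and 127.90 and 94.43 at 3 h. For both complexins the 3 h libraries were the lowest 2 of the 6. The log2 fold changes were -0.49 ± 0.15 for Cplx1 and -0.55 ± 0.19 for Cplx2, with edgeR adjusted p of 0.081 and 0.10 (with the block 0.039 and 0.040).

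The fusion SNAREs themselves lay nearer to their untreated levels. Vamp2 (ENSMUSG00000020894) measured 344.60 and 422.11 cRPKM untreated, 336.45 and 413.09 at 0.5 h, and 322.62 and 299.85 at 3 h. Its 3 h libraries were below the others, with a log2 difference from untreated of -0.01 within replicate 1 and -0.47 within replicate 2. Snap25 measured 260.32 and 293.08 untreated and 264.98 and 224.21 at 3 h, and the groups overlapped. Stx1a, the syntaxin of the plasma membrane, went from 95.1 ± 5.3 to 72.8 ± 14 cRPKM (SD, n = 2). Stxbp5, which encodes tomosyn, an inhibitor that competes for the SNARE complex, went from 18.7 ± 2.0 to 14.8 ± 1.3. Vamp1 overlapped. The median log2 fold change of the 7 genes was -0.28.

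All 11 active zone genes lay lower at 3 h than in both untreated libraries in cRPKM, yet edgeR without the block called 0 of them; 2 had an unadjusted p under 0.05, DESeq2 called 2 lower and limma 0. The separation of all 11 held in cRPKM, and on the TMM scale for 8, against 35.9% and 32.0% of all tested genes separate downward. With the block 3 were called lower. These were Rims3, a short form of the RIM scaffold proteins (-0.36 ± 0.19 on the log2 scale, edgeR adjusted p = 0.24, with the block 0.035), Erc1, an ELKS scaffold (-0.37 ± 0.17, 0.19, with the block 0.041), and Ppfia3, a liprin-alpha (-0.38 ± 0.10, 0.059, with the block 0.029). The median of the 11 was -0.37.

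Unc13a (ENSMUSG00000034799), the most abundant of the active zone genes, measured 50.75 and 53.12 cRPKM untreated, 49.77 and 51.81 at 0.5 h, and 48.82 and 34.02 at 3 h. The log2 difference at 3 h was 0.03 within replicate 1 and -0.62 within replicate 2. Bsn, which encodes the giant scaffold bassoon, measured 31.69 and 36.15 untreated, 29.72 and 29.27 at 0.5 h, and 25.20 and 16.58 at 3 h. Its 0.5 h libraries already lay below both untreated ones in cRPKM, as in 1014 of 15895 tested genes. edgeR called Bsn at neither time, with or without the block, while DESeq2 called it lower at 3 h (adjusted p = 0.042). Pclo, the gene of its relative piccolo, went from 18.9 ± 0.21 to 13.9 ± 3.6 cRPKM (SD, n = 2), Erc2 from 36.6 ± 3.3 to 28.3 ± 8.4, and Rims1 from 22.6 ± 1.4 to 16.7 ± 2.9. Ppfia2, another liprin-alpha, went from 31.2 ± 0.11 to 22.9 ± 4.0 and Rims2 from 7.91 ± 0.12 to 6.58 ± 0.87. None of these 5 was called in either fit. Unc13b, the gene of a second Munc13, had the smallest difference of the 11, from 8.02 ± 0.25 to 7.21 ± 0.54.

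Of the 8 genes of vesicle proteins, edgeR without the block called 0 at 3 h; 3 had an unadjusted p under 0.05, DESeq2 called 2 lower and limma 0, and the blocked fit called 3 lower. Sv2a and Sv2b encode the 2 main forms of SV2 in these cultures. Sv2a measured 105.09 and 120.52 cRPKM untreated, 105.94 and 113.70 at 0.5 h, and 79.35 and 64.12 at 3 h (log2 fold change -0.59 ± 0.16, edgeR adjusted p = 0.059, with the block 0.035). Sv2b measured 63.76 and 86.01 untreated, 61.12 and 79.80 at 0.5 h, and 45.18 and 47.78 at 3 h (-0.63 ± 0.18, 0.070, with the block 0.019). In both genes the 3 h libraries were clear of the other 4. Syn3, the synapsin best known from early development, was called lower with the block (-0.51 ± 0.36, edgeR adjusted p = 0.37, with the block 0.032).

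Sv2c went the other way in cRPKM. It measured 1.49 and 4.35 untreated, 1.33 and 3.05 at 0.5 h, and 4.03 and 4.84 at 3 h, so that the untreated libraries differed from each other by more than the groups did. edgeR did not call it at 3 h against untreated in either fit. Syp (ENSMUSG00000031144) measured 349.74 and 447.81 cRPKM untreated, 362.74 and 426.39 at 0.5 h, and 325.44 and 314.86 at 3 h. Its 3 h libraries were the lowest, and it was not called. Syn1 went from 109 ± 4.7 to 79.9 ± 18 cRPKM, Syn2 from 74.2 ± 20 to 48.0 ± 2.5, and Rab3a from 222 ± 24 to 174 ± 19 (SD, n = 2), none of them called in either fit. The median of the 8 genes was -0.45.

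Rph3a and Doc2b, whose proteins bind calcium through tandem C2 domains as synaptotagmins do but are soluble, had the lowest median of the roles, -0.74. Rph3a (ENSMUSG00000029608), which encodes the Rab3 effector rabphilin, measured 30.74 and 45.28 cRPKM untreated, 29.50 and 39.92 at 0.5 h, and 18.76 and 22.65 at 3 h. The 3 h libraries were the lowest 2 of the 6, and the mean at 3 h was 54.5% of untreated. Its log2 fold change, -0.82 ± 0.22, was the lowest of all 38 genes (edgeR adjusted p = 0.058, with the block 0.0067). Doc2b, the gene of a sensor linked to spontaneous release, measured 19.58 and 18.97 untreated, 19.81 and 17.04 at 0.5 h, and 13.46 and 9.88 at 3 h. It had -0.66 ± 0.19 (edgeR adjusted p = 0.071, with the block 0.014). Neither was called without the block.

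**Figure D4:**
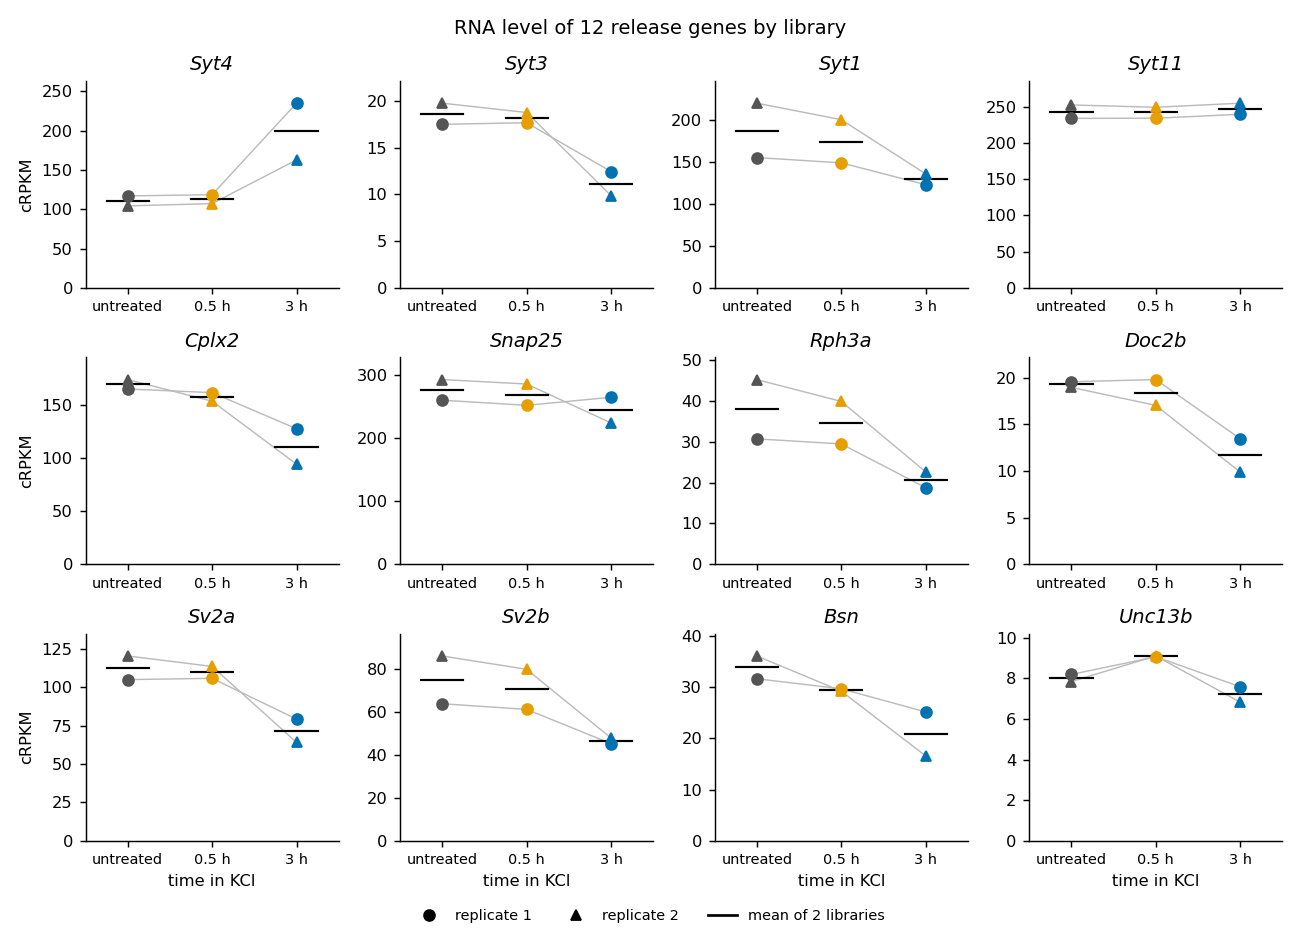
RNA level in cRPKM of 12 release genes in the 6 libraries, each panel with its own axis from 0. Circles are replicate 1, triangles replicate 2, grey lines join libraries of the same number and bars are means of 2 libraries. Syt4 is highest at 3 h, Syt11 is level, and Rph3a, Doc2b, Sv2a and Sv2b are lowest at 3 h in both replicates.

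The size of the downward difference depended on the replicate number. Taken within replicate 1, the median log2 difference of the 38 genes between 3 h and untreated was -0.18, and within replicate 2 it was -0.64. The difference was lower in replicate 2 for 38 of 38 genes, while 51.0% of all tested genes were lower in replicate 2. Snap25 stood at 0.11 in replicate 1 and -0.36 in replicate 2. Syt4 stood at 1.09 and 0.67, and Rph3a at -0.63 and -0.98. In edgeR without replicate 1 at 3 h, 14 release genes were called lower and 0 higher, against 11.2% and 11.9% of all genes tested in that fit. Without replicate 2 at 3 h, 0 were lower and 1 higher, against 4.35% and 6.34%. Without either library of the untreated or of the 0.5 h group, 0 of 38 were called at 3 h. In those 4 fits the share of all genes called lower was 0.0988% and 0.0247% without untreated replicate 1 and 2, and 2.17% and 2.2% without 0.5 h replicate 1 and 2.

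**Figure D5:**
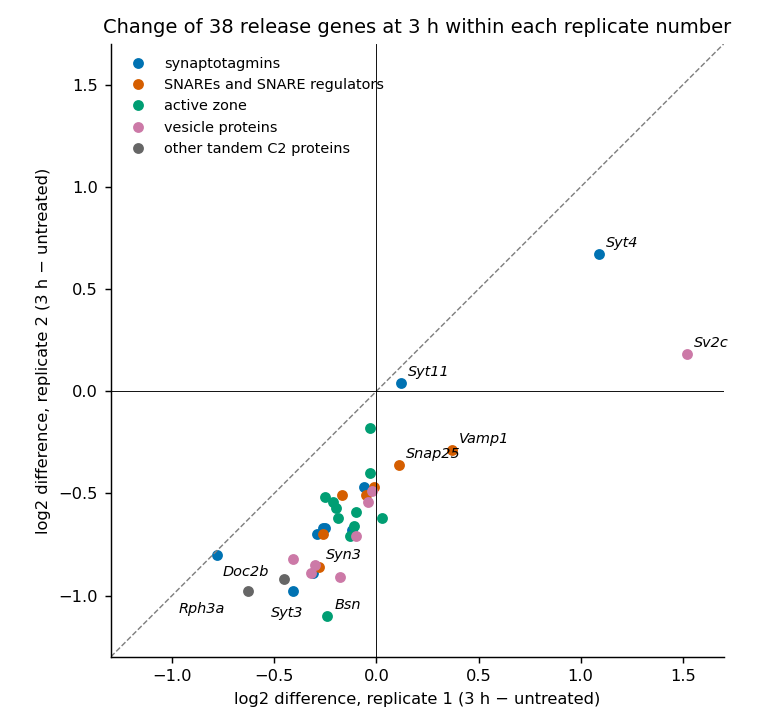
log2 difference between 3 h and untreated for the 38 release genes within replicate 1 (x axis) and within replicate 2 (y axis), coloured by role, with the line of equal values dashed. All 38 genes lie below the dashed line, and Syt4, Syt11 and Sv2c are above 0 in both replicates.

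Sums of the cell type markers at 3 h were read in the same libraries. The 6 neuron markers summed to 764 and 530 cRPKM in the 3 h libraries, against 908 to 1090 untreated, with medians of -0.01 in replicate 1 and -0.48 in replicate 2. Tubb3 carried the lower sum, at 607 and 453 cRPKM untreated and 253 and 158 at 3 h, and the other 5 summed to 479 and 455 untreated and 510 and 372 at 3 h, which overlap. The 6 excitatory neuron markers summed to 284 to 331 at 3 h against 399 to 539 untreated. The 7 interneuron markers summed to 262 to 364 against 345 to 557, which overlap. The 7 astrocyte markers summed to 901 and 1890 at 3 h against 836 and 1250 untreated, which also overlap. Their medians were 0.22 and 0.57 in the 2 replicates, and fold changes were above 0 for 7 of 7. Among them Gfap differed widely between replicates, at 22.38 and 307.34 cRPKM untreated and 24.58 and 474.96 at 3 h. edgeR without the block called 0 of the markers in these 4 lists. At an unadjusted p under 0.05 there was 1 lower in each neuronal list and 2 astrocyte markers higher. With the block edgeR called 1 neuron, 1 excitatory neuron and 4 interneuron markers lower and 4 astrocyte markers higher. DESeq2 called 1 in each list in the same directions, and limma called 1 neuron marker lower. Over all tested genes edgeR called 8.71% higher and 6.84% lower without the block. With the block the share was 18.6% each way, so 1 of 6 lower is near the background there. The shares were 17.8% and 16.6% at an unadjusted p under 0.05, 14.3% and 11.7% in DESeq2, and 8.45% and 6.75% in limma. Of the other lists, the 6 progenitor markers had a median of 0.47, with 0 called without and 4 called higher with the block. The 8 oligodendrocyte lineage markers had a median of 0.16, with 0 called without the block and 1 each way with it. The fibroblast marker Pdgfrb was called lower (-1.05 ± 0.16, edgeR adjusted p = 0.017). The part of these markers in the release gene values was not tested. All 8 microglia markers stayed under 1 cRPKM at 3 h.

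The test of 3 h against 0.5 h is also the test of whether the 2 KCl times differ in their effect. edgeR without the block called 0 of 38 release genes here, against 6.39% of all tested genes higher and 4.87% lower, and limma called 0, against 5.91% and 4.41%. At an unadjusted p under 0.05 there were 1 higher and 7 lower, against 15.9% and 14.9% of all tested genes, and DESeq2 called 1 higher and 6 lower, against 12.2% and 10.1%. Syt4 had 0.90 ± 0.22 on the log2 scale (edgeR adjusted p = 0.057, with the block 0.012) and Syt3 -0.62 ± 0.15 (0.055, with the block 0.034). Both lay just outside the threshold without the block. With the block, Sv2c joined Syt4 among the genes called higher, and 7 were called lower, Syt2, Syt3, Syt17, Ppfia3, Sv2b, Rph3a and Doc2b, against 15.6% of all tested genes in each direction. Sv2c had 1.10 ± 0.57 without the block (edgeR adjusted p = 0.25, with the block 0.042). Rph3a had -0.67 ± 0.22 (0.11, with the block 0.012) and Doc2b -0.58 ± 0.19 (0.11, with the block 0.024). The median of the 38 genes was -0.28. Both comparisons at 3 h share the 3 h libraries.

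Other genes of exocytosis were read from 2 lists. The first held 60 tested relatives of the release genes, such as further synaptotagmins, syntaxins, Rab3 regulators and liprins. At 3 h edgeR called 6 of them higher and 1 lower against untreated (10 and 15 with the block), against 8.71% and 6.84% of all tested genes (18.6% each way with the block), and the median was -0.27. At an unadjusted p under 0.05 8 relatives were higher and 15 lower, DESeq2 had 8 in each direction, and limma had 6 higher and 1 lower. The matching shares of all tested genes, higher and lower, were 17.8% and 16.6%, 14.3% and 11.7%, and 8.45% and 6.75%. At 0.5 h edgeR called 0 in each fit, with 0 at an unadjusted p under 0.05 and 0 in DESeq2 and limma. Ppfia1, a liprin-alpha found in most tissues, rose from 10.02 and 9.86 cRPKM to 16.71 and 16.73 (0.81 ± 0.08, adjusted p = 0.0073). Esyt1, which tethers the endoplasmic reticulum to the plasma membrane, rose from 0.96 and 0.78 to 4.0 and 3.04 (2.07 ± 0.23, adjusted p = 0.0088). Snap23, the widely expressed counterpart of Snap25, rose from 5.13 and 4.87 to 8.40 and 12.01 (1.08 ± 0.16, adjusted p = 0.016). Unc13d, the Munc13 of blood cells, was called higher at levels under 1 cRPKM (1.72 ± 0.25, adjusted p = 0.014). The gene called lower was Rimbp2, which links RIMs to calcium channels (-0.84 ± 0.18, adjusted p = 0.035); it was named after its value was seen.

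The other list held 49 tested genes of vesicle recycling and transmitter loading. At 3 h edgeR called 3 higher and 0 lower (4 and 6 with the block), and the median was -0.12. At an unadjusted p under 0.05 there were 5 higher and 7 lower, with 4 and 5 in DESeq2 and 2 and 0 in limma. Of all tested genes edgeR called 8.71% higher and 6.84% lower, and 18.6% each way with the block. These shares were 17.8% and 16.6% at an unadjusted p under 0.05, 14.3% and 11.7% in DESeq2, and 8.45% and 6.75% in limma. The 3 called higher without the block were Gak (0.60 ± 0.10, adjusted p = 0.022), Picalm (0.66 ± 0.13, 0.031) and Sypl (0.45 ± 0.11, 0.047). Gak and Picalm are of clathrin-coated vesicle turnover, and Sypl is a relative of synaptophysin. Picalm measured 50.87 and 44.23 cRPKM untreated against 71.50 and 73.08 at 3 h. At 3 h against 0.5 h edgeR called 5 relatives higher and 0 lower (8 lower at an unadjusted p under 0.05, 6 in DESeq2 and 0 in limma). It called 2 recycling genes higher and 0 lower (3, 2 and 0). Of all tested genes edgeR called 6.39% higher and 4.87% lower in this comparison. The lower shares were 14.9% at an unadjusted p under 0.05, 10.1% in DESeq2 and 4.41% in limma. Of the recycling genes edgeR called 0 at 0.5 h, against 0.0377% higher and 0.0% lower of all tested genes. There were also 0 at an unadjusted p under 0.05, 0 in DESeq2 and 0 in limma.

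Promoter sequence was read for 28 of the 38 genes from RefSeq (GRCm38.p6), as the 250 bases before each listed start. Syt4, Syt5, Syt7, Syt12, Syt17, Snap25, Vamp2, Rims2, Syn3 and Doc2b were not analysed here. Syt3 is shown as the gene called lower with an entry, Rph3a, at the first of its listed starts, as the gene with the lowest fold change, and Syn1 as the only one with a full cyclic AMP response element, the site of the activity-regulated factor CREB. The last 2 were chosen after their values were seen. Windows are Syt3 chr7:44383876-44384125 on the plus strand, Rph3a chr5:121010093-121010342 on the minus strand and Syn1 chrX:20920919-20921168 on the minus strand, printed 5′ to 3′ along the gene. Capitals mark a match to the loose AP-1 pattern TGANTCA (N, any base), here with A in the middle, in Rph3a, and the response element in Syn1. Syt3 has no capitals because none of the searched motifs occurs there.
Syt3: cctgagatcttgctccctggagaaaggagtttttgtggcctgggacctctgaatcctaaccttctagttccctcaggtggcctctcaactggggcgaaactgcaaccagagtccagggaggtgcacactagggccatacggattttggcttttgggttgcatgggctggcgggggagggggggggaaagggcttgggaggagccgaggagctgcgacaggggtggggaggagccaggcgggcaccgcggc
Rph3a: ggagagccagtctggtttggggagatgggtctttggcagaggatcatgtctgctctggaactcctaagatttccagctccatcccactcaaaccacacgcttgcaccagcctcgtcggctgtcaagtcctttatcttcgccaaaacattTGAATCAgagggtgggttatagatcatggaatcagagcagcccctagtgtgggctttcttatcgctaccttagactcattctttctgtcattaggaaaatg
Syn1: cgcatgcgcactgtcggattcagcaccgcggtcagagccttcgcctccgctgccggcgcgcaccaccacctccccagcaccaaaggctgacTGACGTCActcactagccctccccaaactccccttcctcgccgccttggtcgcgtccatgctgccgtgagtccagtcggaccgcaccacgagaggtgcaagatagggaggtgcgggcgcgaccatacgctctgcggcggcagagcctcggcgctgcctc

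These 3 motifs were searched on both strands: TGACGTCA, the full response element, TGANTCA, and TGACG, part of the response element, which the full element contains. TGANTCA is a loose form of the AP-1 site bound by Fos and Jun proteins, which has C or G in the middle. The counts of TGANTCA also take matches with A or T there, as in Rph3a. TGACGTCA was found in 1 of 28 release genes (Syn1, 159 bases before the start), which is 1 of their 39 windows, as some genes have several starts, and in 1.55% of 32851 windows of the same length. TGANTCA was found in 3 of the 39 windows (Syt2, Rph3a and Erc2) and in 6.75% of all windows. TGACG was found in 7 of the 39 (Syt2, Stx1a, Erc1, Ppfia3, Rab3a, Unc13a and Syn1) and in 17.8% of all windows. The shares of the release genes' windows are near those of all windows for TGANTCA and TGACG, and a match describes the letters only. Syn1, with the full element, was not called at either time.

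The kit does not mark the strand, so reads of overlapping genes cannot be told apart by strand. In the GENCODE annotation used for names, 18 of the 38 genes share exonic sequence with another gene. Among the partners with a deposited value were Timp3 at 28.0 cRPKM over Syn3, Timp4 at 21.4 over Syn2, Araf at 33.4 over Syn1, Mpv17l2 at 27.0 over Rab3a and Colgalt1 at 31.8 over Unc13a (means of 6 libraries). Syt4 overlaps an annotated gene on the other strand, Gm26658, for which no value was used here. Values of these genes are uncertain to that extent.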

How the data were processed

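Per the labels' protocols, RNA was taken with TriReagent and sequenced from libraries of the TruSeq kit V2; the genome build mm9 and Bowtie are named, without versions, in the submitters' processing notes. Each deposited file gives 22667 genes by Ensembl identifier with an RPKM by the authors, deposited as cRPKM, and a raw read count that the authors left unnormalized; 1114 genes carry no value. The definition of cRPKM is not given in the sources used here; over 7690 genes above 2000 counts it equalled the count divided by 1 length per gene and by the library total, within 0.381%. GENCODE gene names matched 20451 of 21553 identifiers (94.9%).

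The counts entered the quasi-likelihood F test of edgeR 4.0.16 (R 4.3.3), with all 6 libraries, group as the term, TMM scaling and a filterByExpr minimum of 10 (Benjamini-Hochberg adjustment over all 15895 tested genes, threshold 0.05). The 3 residual and 2.75 prior degrees of freedom and a biological coefficient of variation of 19.2%, not counting error at this depth, limit the precision. Log2 fold changes carry the SE of the fit, and levels are mean cRPKM ± SD. DESeq2 1.42.0, limma 3.58.1 (voom), library totals, no low-count filter and leaving out each library were alternatives, and scripts were tested on simulated data.

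Replicate numbers were read as a pairing from the data, not the labels: per-gene deviations from the group means correlated across genes with r = 0.81, 0.58 and 0.61 between the groups, and the second principal component (33.2% of variance) separated the numbers. Blocked values therefore stand beside results they change.

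The 38 genes and all lists were chosen with earlier results of these data known. All 38 genes are named; fold change, SE and adjusted p are given where edgeR called a gene with or without the block, values in every library for genes called without the block and the most abundant gene of each role and for further genes chosen after seeing the values, and from each related list up to 4 called genes with the smallest adjusted p.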

Additional observations from a re-analysis of the deposited data

Results flagged for a closer look

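Unc13b, which encodes a Munc13 priming protein, lay on opposite sides of its untreated level at the 2 times in cRPKM. Both 0.5 h libraries (9.07 and 9.11 cRPKM) lay above both untreated libraries (8.20 and 7.85), and both 3 h libraries (7.59 and 6.83) lay below them. On the TMM scale of the test the 3 h and untreated libraries overlapped. The log2 difference at 3 h was -0.03 within replicate 1 and -0.18 within replicate 2. The log2 fold change was 0.16 at 0.5 h and -0.10 at 3 h, and neither was called. The test of the difference between the times gave -0.25 ± 0.11 (edgeR adjusted p = 0.17, with the replicate block 0.060), which misses the threshold. Opposite separations of this kind in cRPKM were found in 1 of the 38 release genes and in 580 of all tested genes (3.65%).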

How the results depend on the processing

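Directions of the medians at 3 h held under every alternative run. With replicate number as a block, edgeR called 13 genes higher at 0.5 h, 2963 higher and 2955 lower at 3 h against untreated, and 2477 higher and 2484 lower at 3 h against 0.5 h, where it called 6, 1384, 1088, 1015 and 774 without it. The blocked counts for the release genes were 14 lower at 3 h against untreated and 2 higher and 7 lower against 0.5 h. DESeq2 called 35 genes higher and 2 lower at 0.5 h, 2276 and 1857 at 3 h, and 1942 and 1606 at 3 h against 0.5 h; among the release genes it called 9 lower at 3 h against untreated, and 1 higher and 6 lower against 0.5 h. Without the low-count filter 13 genes were higher at 0.5 h, and 1 release gene was higher at 3 h against 0.5 h. With library totals, which moved the median of all genes to -0.08 at 3 h against untreated and to -0.10 against 0.5 h, 4 release genes were lower against untreated and 1 was higher and 3 lower against 0.5 h; the members' median lay 0.36 and 0.26 below that of all genes, as with TMM. limma called 0 release genes higher at 3 h. Where edgeR called a release gene at 3 h with or without the block, the sign held under every alternative run. Of these values DESeq2 brought 13 past the threshold and library totals 6, and limma removed 1. Signs of the release genes not called, such as Unc13b, were not followed individually. Fold changes at 3 h against untreated were below 0 for 35 release genes with all libraries. Without replicate 2 at 3 h they were below 0 for 31, so some signs did change. The block changed no call of a release gene at 0.5 h.

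Leaving out 1 library at a time gave 0 to 6 genes higher at 0.5 h, 34 to 1924 higher and 4 to 1815 lower at 3 h, and 0 to 1527 higher and 0 to 1388 lower at 3 h against 0.5 h. For the release genes it gave 0 to 1 higher and 0 to 14 lower at 3 h against untreated, and 0 to 1 higher and 0 to 12 lower against 0.5 h. Their median at 0.5 h ran from -0.14 to 0.02, and at 3 h from -0.60 without replicate 1 at 3 h to -0.15 without replicate 2 at 3 h. With a library left out its group's other library is assumed to vary like the rest, and the causes of these moves were not tested. The values within each replicate number were added after seeing the data. Each release gene other than Syt2 had at least 144 counts in every library, and the part of depth in these values was not tested.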

Other observations

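In 4 pairs of related release genes the shares of the summed cRPKM overlapped between untreated and 3 h libraries. Cplx1 supplied 49.3 ± 3.0% of the complexin RNA untreated and 50.8 ± 4.6% at 3 h (SD, n = 2). Vamp2 supplied 98.3 ± 0.55% and 98.0 ± 0.47% of its pair with Vamp1. Erc1 supplied 44.9 ± 1.8% and 44.2 ± 3.4% of the ELKS pair, and Ppfia3 55.3 ± 1.6% and 55.7 ± 3.5% of its liprin pair.

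Shares overlapped as well in the Unc13 pair and among the synapsins. In 3 other families the shares of some members did not overlap. Bsn supplied 62.4% and 65.8% of the bassoon and piccolo sum untreated and 60.5% and 59.4% at 3 h. Rims2 supplied 17.9% and 17.8% of the RIM sum untreated and 19.1% and 20.1% at 3 h. Sv2c supplied 0.875% and 2.06% of the SV2 sum untreated and 3.13% and 4.15% at 3 h. All 38 genes together summed to 3172 ± 330 cRPKM untreated, 3068 ± 230 at 0.5 h and 2572 ± 230 at 3 h. No test was run on these sums and shares.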
